A study of Mus musculus and Sus scrofa with 12 samples.

Results

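Hand1 and Hand2 are paralogous genes for basic helix-loop-helix (bHLH) transcription factors, which bind DNA as dimers with other bHLH proteins at short motifs called E-boxes. Both members were taken by symbol, as 2 of the 21774 mouse and 2 of the 20661 pig protein-coding genes, along with all called peaks at their transcription start sites (TSSs) and within 500 kb on each side. The peaks came from forelimbs of wild-type embryos from natural matings, of mice at E11.5 and of pigs at day 23 of gestation, and neither species received any treatment. ChIPmentation, a chromatin immunoprecipitation in which a transposase adds the sequencing adapters on the beads, was run for 3 histone marks. The labels name 12 samples, 2 for each species and mark, whereas the series' design text gives pig H3K4me1 a single biological replicate. The deposited lists merge the replicates and give positions with no score, so each call below is present or absent, carries no replicate error, and rests on an unknown depth.

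In the early limb bud Hand2 is expressed in posterior mesenchyme, where it opposes Gli3 and activates Shh, the signal that patterns the digits. Hand1 is best known for roles in the heart and in trophoblast. Of the histone marks, H3K4me3 is typical of promoters and H3K4me1 of enhancers and promoter edges, and H3K27ac is added at either kind of element when it is active. A whole forelimb mixes anterior and posterior cells, so a mark carried by fewer cells and a weaker mark in all cells cannot be told apart.

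Mouse Hand2 lies at chr8:57320983-57324517 on the plus strand (GRCm38) and pig HAND2 at chr14:16460089-16462979 on the plus strand (Sscrofa11.1). Mouse Hand1 lies at chr11:57828713-57832147 on the minus strand and pig HAND1 at chr16:68679977-68683346 on the plus strand. Distances are given from the annotated 5′ end of the gene, with negative values upstream.

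The sequence just upstream of mouse Hand2 is shown because both species carried H3K4me3 and H3K27ac within 1 kb of the annotated Hand2 start. No mouse peak overlapped the printed bases, as mouse H3K4me3 began 0.13 kb and H3K27ac 0.95 kb downstream of the start. It is the 250 bases that precede the annotated start, chr8:57320733-57320982 on the plus strand, from the RefSeq promoter table (GRCm38.p6). Capitals mark matches to the E-box CANNTG, to the posterior Hox motif TTTTATNG and to CCAAT, searched on both strands.

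Hand2 promoter: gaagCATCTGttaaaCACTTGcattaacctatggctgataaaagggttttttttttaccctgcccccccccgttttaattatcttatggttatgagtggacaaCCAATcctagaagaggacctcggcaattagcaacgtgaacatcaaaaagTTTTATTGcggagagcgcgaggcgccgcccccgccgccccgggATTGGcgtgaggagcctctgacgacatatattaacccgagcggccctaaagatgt

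The window held 2 E-box matches, starting at -246 and -235 from the start, and 66.2% of the 32851 upstream windows of that length in the table held at least 1. It held 1 posterior Hox match at -98, a motif found in 3.70% of the windows. CCAAT or its reverse complement occurred at -147 and -55, and 33.8% of the windows held one. The GLI motif GACCACCCA, present in 0.225% of the windows, and TATAAA, present in 12.4%, were not found in these letters. None of these motifs overlapped another. The table held Hand2 and Hand2os1. Hand1 was not matched.

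The other sequences to show are 4 segments that blastn aligned between the mouse and pig Hand2 windows, with capitals for bases identical in the alignment of the pair. All are written on the plus strand, which is the strand of Hand2 in both species. The first lies 359 kb upstream of mouse Hand2 under H3K27ac and H3K4me1, outside any annotated gene, at chr8:56961849-56962032. Its pig partner lies at chr14:16207590-16207773, 252 kb upstream of HAND2 and outside any annotated gene, under H3K4me1 alone. The alignment was 84.3% identical.
Mouse, 359 kb upstream: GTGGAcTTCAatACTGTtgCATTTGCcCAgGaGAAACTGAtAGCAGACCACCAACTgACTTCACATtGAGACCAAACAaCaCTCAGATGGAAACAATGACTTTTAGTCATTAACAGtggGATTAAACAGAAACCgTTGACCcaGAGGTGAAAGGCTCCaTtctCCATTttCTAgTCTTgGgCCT
Pig, 252 kb upstream: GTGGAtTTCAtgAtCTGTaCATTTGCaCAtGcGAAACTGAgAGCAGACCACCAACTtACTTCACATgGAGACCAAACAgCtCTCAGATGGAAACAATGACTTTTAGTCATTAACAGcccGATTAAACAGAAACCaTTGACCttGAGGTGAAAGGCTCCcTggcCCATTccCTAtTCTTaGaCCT

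The second segment lies 268 kb upstream in mouse, also under H3K27ac and H3K4me1 between genes, at chr8:57053270-57053458. Its pig partner at chr14:16270975-16271167, 189 kb upstream and between genes, lay under H3K4me1 alone. The identity was 73.8%.
Mouse, 268 kb upstream: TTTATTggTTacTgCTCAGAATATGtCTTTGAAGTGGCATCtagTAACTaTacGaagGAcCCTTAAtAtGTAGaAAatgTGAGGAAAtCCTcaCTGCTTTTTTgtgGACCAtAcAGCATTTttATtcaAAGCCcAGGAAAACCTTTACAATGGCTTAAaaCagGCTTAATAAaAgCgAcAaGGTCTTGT
Pig, 189 kb upstream: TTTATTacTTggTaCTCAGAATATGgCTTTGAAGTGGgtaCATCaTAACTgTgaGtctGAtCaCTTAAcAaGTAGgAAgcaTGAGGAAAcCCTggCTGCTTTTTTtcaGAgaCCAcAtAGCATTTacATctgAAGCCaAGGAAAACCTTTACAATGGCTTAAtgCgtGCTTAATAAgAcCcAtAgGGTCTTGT

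The third segment had the reverse pattern. In pig it lay 288 kb upstream at chr14:16172055-16172230, within the uncharacterised gene LOC102163133 but in none of its exons, under all 3 marks. In mouse it lay between genes at chr8:56916087-56916263, 405 kb upstream, under H3K4me1 alone. The identity was 80.9%.
Mouse, 405 kb upstream: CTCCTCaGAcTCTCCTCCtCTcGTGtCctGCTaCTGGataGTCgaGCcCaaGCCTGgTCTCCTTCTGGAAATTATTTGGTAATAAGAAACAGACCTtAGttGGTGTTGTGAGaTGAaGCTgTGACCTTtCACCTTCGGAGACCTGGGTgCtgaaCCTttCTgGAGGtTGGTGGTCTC
Pig, 288 kb upstream: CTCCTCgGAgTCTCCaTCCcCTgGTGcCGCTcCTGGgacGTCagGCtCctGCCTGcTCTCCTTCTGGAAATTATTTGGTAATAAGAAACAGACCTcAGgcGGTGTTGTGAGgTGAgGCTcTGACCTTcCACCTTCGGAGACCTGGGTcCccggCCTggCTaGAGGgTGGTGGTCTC

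The fourth segment lay close to the gene and carried H3K4me3 and H3K27ac in both species. It is at chr8:57333885-57334032 in mouse, 13 kb downstream of the Hand2 5′ end in an exon of the long noncoding RNA (lncRNA) Gm34030, and at chr14:16472031-16472180 in pig, 12 kb downstream with no annotated gene. The identity was 82.7%.
Mouse, 13 kb downstream: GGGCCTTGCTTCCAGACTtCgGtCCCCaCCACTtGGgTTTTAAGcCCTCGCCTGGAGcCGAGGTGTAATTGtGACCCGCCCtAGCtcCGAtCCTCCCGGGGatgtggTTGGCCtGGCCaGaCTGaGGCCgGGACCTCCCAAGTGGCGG
Pig, 12 kb downstream: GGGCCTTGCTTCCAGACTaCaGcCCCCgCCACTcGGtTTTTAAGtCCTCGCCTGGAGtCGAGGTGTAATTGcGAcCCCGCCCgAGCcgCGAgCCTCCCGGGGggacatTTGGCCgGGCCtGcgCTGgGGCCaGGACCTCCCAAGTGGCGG

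The first comparison asked which marks lay within 1 kb of each TSS. Mouse Hand2, pig HAND2 and mouse Hand1 carried H3K4me3 and H3K27ac without H3K4me1, whereas pig HAND1 carried none of the 3. Among all coding genes, H3K4me3 was called at 65.0% in mouse and 64.9% in pig, H3K27ac at 41.6% and 46.7%, and H3K4me1 at 54.7% and 61.3%. The state with H3K4me3 and H3K27ac but no H3K4me1 was held by 8.90% of mouse and 10.1% of pig genes, and the unmarked state by 24.6% of pig genes. With consensus calls at single genes, no test of these states between species was possible.

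At mouse Hand2 the H3K4me3 peak ran from 0.13 to 5.65 kb, over nearly all of the gene and past its 3′ end. At 5520 bp it was wider than 98.6% of mouse H3K4me3 peaks, whose median width was 3308 bp. The H3K27ac peak ran from 0.95 to 5.68 kb and was wider than 89.9% of its list, so it met the 1 kb window by only its first bases. The nearest H3K4me1 peak lay 24.1 kb away.

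At pig HAND2 the same stretch held 3 separate H3K4me3 peaks, from -0.86 to 0.96 kb, from 1.45 to 2.45 kb and from 3.49 to 4.91 kb. H3K27ac lay under the first and the second of these, from -0.83 to 0.86 kb and from 1.48 to 2.41 kb. The first H3K4me3 peak, at 1820 bp, was wider than 58.1% of the pig list, whose median was 1679 bp. The nearest H3K4me1 peak, from -5.03 to -1.88 kb, lay just outside the window.

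The annotated 5′ ends of Hand2 are not at matching positions. Mouse sequence from -402 to 270 bp aligned with pig sequence from -1250 to -578 bp, at 78.1% identity, which sets the pig 5′ end 848 bp inside the mouse gene. Moved by that offset, the first pig H3K4me3 peak ran from -0.01 to 1.81 kb of the mouse gene and the first H3K27ac peak from 0.02 to 1.71 kb. With the same offset the last pig H3K4me3 peak ended at 5.76 kb, close to the mouse end at 5.65 kb. That position is approximate, because the offset was smaller there, with mouse 4.73 to 4.87 kb aligned to pig 4.05 to 4.19 kb. On the mouse scale, pig H3K27ac thus began at the 5′ end and mouse H3K27ac 0.95 kb inside it. Over the whole lists, the median width was smaller in pig, 1679 against 3308 bp for H3K4me3 and 1164 against 2928 bp for H3K27ac. Those pig libraries were sequenced at 50 bp where the mouse reads were cropped from 100 bp. The part of read length in the widths was not tested.

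At mouse Hand1 H3K4me3 ran from 0.25 to 4.18 kb and H3K27ac from 0.66 to 4.38 kb. Their widths, 3934 and 3725 bp, exceeded 80.4% and 71.8% of their lists. The nearest H3K4me1 peak lay 12.8 kb away. The lncRNA Gm32915 starts 39 bp inside Hand1 on the other strand, and the positions cannot divide the marks between the 2 genes.

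At pig HAND1, which has 2 annotated TSSs, the nearest H3K4me3 and H3K27ac peaks began 28.97 and 29.18 kb from the 5′ end, at the promoter of the next gene, SAP30L. The nearest H3K4me1 peak ran from -7.48 to -6.20 kb. The pig assembly had no unknown base within 500 kb of HAND1, and mouse Hand1 sequence from 65 to 916 bp aligned there at 79.2% identity, with its 5′ end offset by 89 bp. The mouse Hand1 H3K4me3 peak had 1068 aligned bases, which fell between 0.16 and 2.48 kb in pig, under no pig peak. Without depths, a missing call does not show that the mark was absent.

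**Figure D1:**
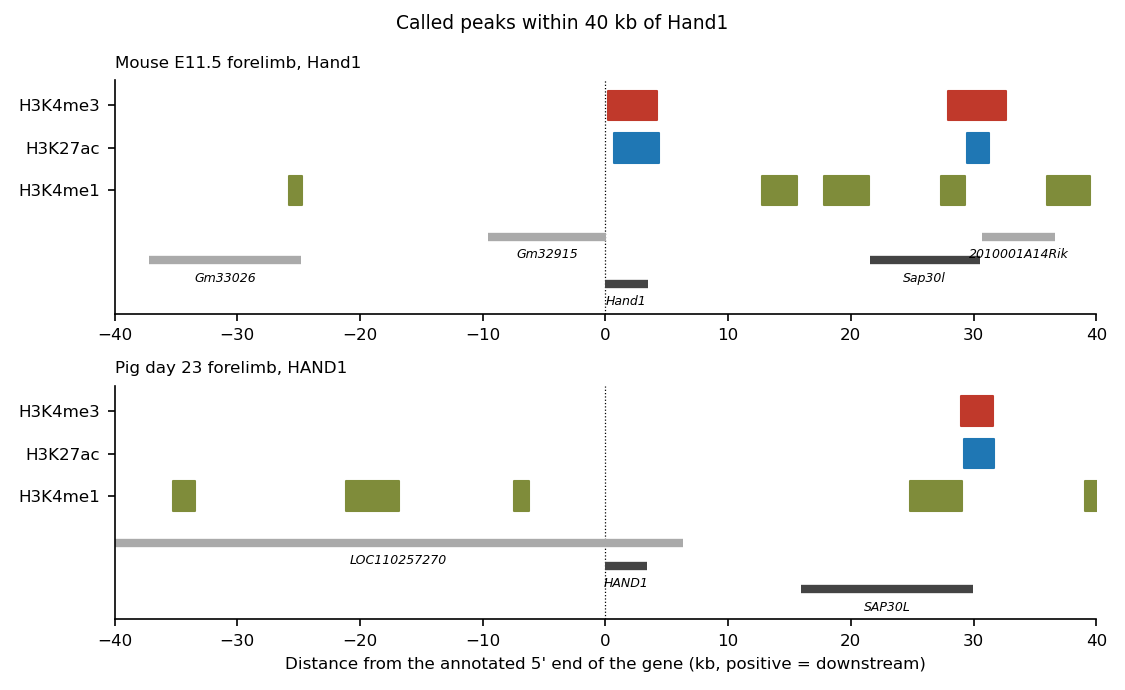
Called peaks of each mark (coloured boxes) and annotated genes (dark, coding; grey, lncRNA) within 40 kb of the Hand1 5′ end in mouse (top) and pig (bottom); the x axis is distance in kb along the direction of Hand1. In mouse, H3K4me3 from 0.25 kb and H3K27ac from 0.66 kb cover the gene, and in pig the nearest peaks of these marks lie at SAP30L and begin at 28.97 and 29.18 kb.

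Hand2 sat in a row of H3K4me3 peaks, few of them at an annotated coding TSS. Within 50 kb of its 5′ end mouse had 5 H3K4me3 peaks, a number reached by 12.2% of mouse coding genes, and pig had 8, reached by 3.18% of pig genes. The median gene had 2 in each species. The pig count includes stretches that mouse has as single peaks, with 3 pieces at the gene and 2 near 11 kb. By length, these peaks covered 16.8 kb in mouse, which 8.57% of genes reached, and 10.1 kb in pig, which 9.39% reached, against medians of 5.3 and 2.9 kb. Hand1 had 2 such peaks in mouse and 1 in pig, numbers that 52.9% and 82.0% of genes reached. This count was chosen after the peaks had been seen.

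The upstream neighbour of the row lay from -9.84 to -6.86 kb in mouse, within the body of Hand2os1, a lncRNA that starts at -124 bp on the other strand. Pig had H3K4me3 from -9.61 to -7.54 kb, within the uncharacterised coding gene LOC100517194, which starts at -873 bp on the other strand. H3K27ac accompanied both, from -10.06 to -6.74 kb in mouse and from -9.59 to -7.34 kb in pig. The mouse H3K4me3 peak held 377 aligned bases, and pig sequence matching it carried all 3 marks. Pig alone also had a narrow H3K4me3 peak of 326 bp from -2.13 to -1.81 kb, whose matched mouse sequence had no mark. The H3K4me3 peak at mouse Hand2 also lay within 1 kb of the Hand2os1 start. At pig HAND2 the first H3K4me3 and H3K27ac peaks also lay within 1 kb of the LOC100517194 start. The positions cannot divide these marks between the genes.

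Downstream, mouse H3K4me3 from 10.78 to 14.03 kb covered the start of the lncRNA Hdnr and lay within 1 kb of that of Gm34030, and H3K27ac ran from 10.82 to 14.89 kb. Pig had H3K4me3 from 9.88 to 11.62 kb and from 11.93 to 12.69 kb, both with H3K27ac and neither at an annotated TSS. The mouse peak shared 851 aligned bases with this stretch, the 13 kb segment printed above among them. So the called marks matched between species at these positions although the annotated transcripts did not.

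Further downstream, mouse H3K4me3 from 18.38 to 21.11 kb and H3K27ac from 19.05 to 21.02 kb lay within Hdnr. Pig H3K4me3 from 18.57 to 19.52 kb and H3K27ac from 18.57 to 19.64 kb were at a like distance. The only aligned sequence of the mouse peak, 220 bases, fell from 18.31 to 18.53 kb in pig, just outside the pig peaks, so these calls could not be matched by sequence. The last mouse H3K4me3 peak, from 32.15 to 34.46 kb, overlapped H3K4me1 but not H3K27ac. Its 156 aligned bases lay under H3K4me1 alone in pig.

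**Figure D2:**
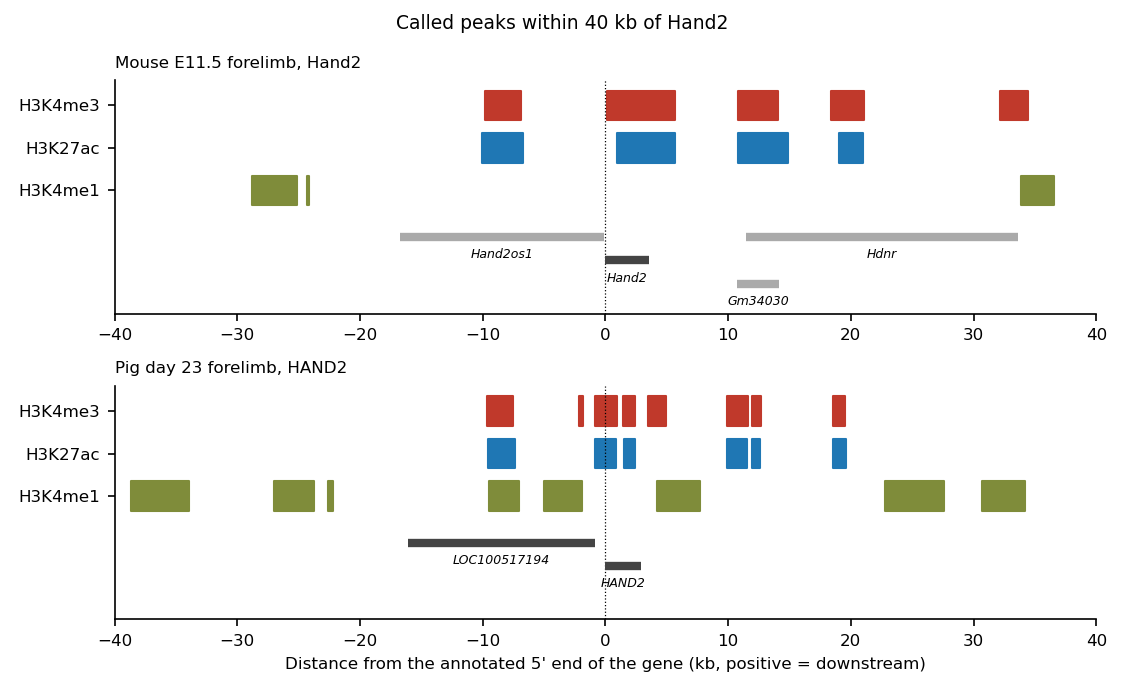
Called peaks of each mark (coloured boxes) and annotated genes (dark, coding; grey, lncRNA) within 40 kb of the Hand2 5′ end in mouse (top) and pig (bottom); the x axis is distance in kb along the direction of Hand2. H3K4me3 and H3K27ac lie at the gene, near -9 kb, near 11 to 14 kb and near 19 kb in both species.

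The second comparison turned to distal H3K27ac peaks, those with no H3K4me3 and no annotated TSS within 1 kb. Mouse Hand2 had 8 within 500 kb and pig HAND2 12. Mouse Hand1 had 9 and pig HAND1 4. In mouse, 21.9% of coding genes had at least the 8 of Hand2 and 15.7% at least the 9 of Hand1. In pig, 19.4% had at least the 12 of HAND2 and 66.8% at least the 4 of HAND1. The median gene had 4 in mouse and 6 in pig. By the length that these peaks covered, 51.4% of mouse coding genes reached Hand2 and 24.8% reached Hand1. In pig, 32.2% reached HAND2 and 58.8% reached HAND1. Mouse Hand2 was thus above the median gene by count but near it by length. These counts and lengths share the windows with neighbouring genes and do not show which gene a peak acts on.

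In mouse, 4 of the distal peaks lay upstream of Hand2, in the long stretch without coding genes that ends at Fbxo8, whose start is at -769.8 kb. They ran from -360.12 to -358.34 kb, from -270.41 to -269.13 kb, from -268.15 to -266.46 kb and from -55.90 to -54.46 kb, and the first 3 overlapped H3K4me1. Hand2 had the nearest coding TSS to all 4, and also to a peak of 263 bp that began 59.86 kb downstream. The other 3 began 254.27 kb downstream, within Galnt7, a glycosyltransferase gene, and 371.50 and 389.32 kb downstream.

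In pig, none of the 12 distal peaks lay upstream of HAND2 and none had HAND2 as the nearest coding gene. One began 85.84 kb downstream, 9 lay within GALNT7 between 259.41 and 371.74 kb, and the last 2 began 469.78 and 475.95 kb downstream. Pig did have an upstream H3K27ac peak from -288.88 to -287.61 kb, but H3K4me3 from -288.88 to -287.62 kb lay on it, so it was not distal by the rule. It contains the third pair printed above. The difference in sides was noticed in these counts and was not tested.

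H3K4me1 did not follow the H3K27ac sides. Upstream of Hand2 it had 21 peaks over 81.9 kb in mouse and 47 peaks over 136.1 kb in pig. Downstream it covered 104.6 kb in mouse and 95.3 kb in pig. Over both sides it covered 186.5 kb in mouse, reached by 16.9% of mouse coding genes, and 231.3 kb in pig, reached by 25.6% of pig genes. The upstream sides of the 2 windows do not hold the same sequence, as mouse -488.9 kb aligned with pig -359.3 kb. Pig H3K4me1 peaks from -501.03 to -364.78 kb lay beyond that point and held no aligned sequence. Pig H3K4me1 also differs from the other pig lists in its stated replicate number and its read length at sequencing. The part of window ends, replicates and read length in these counts was not tested.

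**Figure D3:**
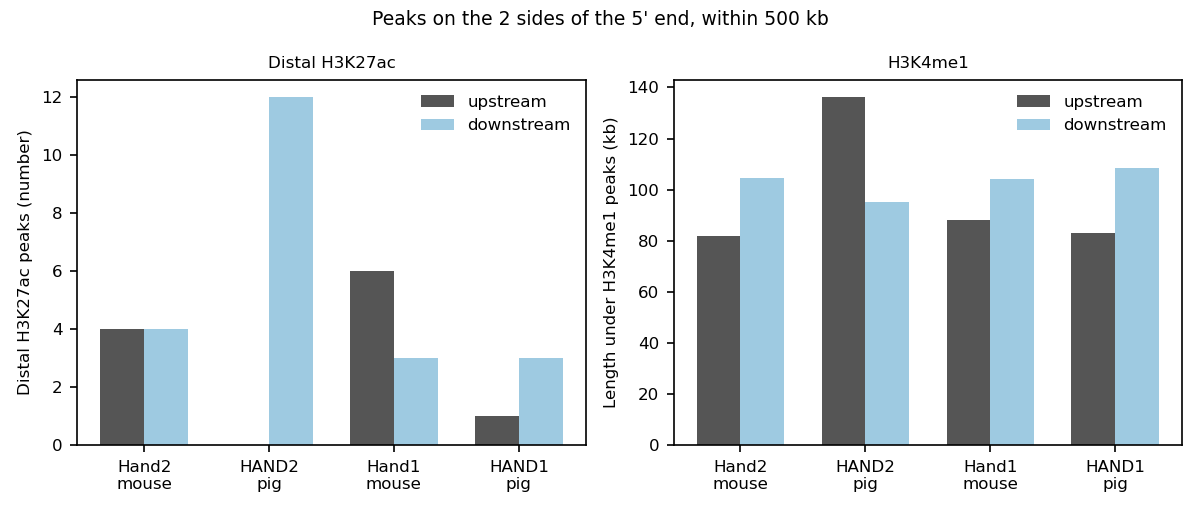
Bars give the number of distal H3K27ac peaks (left) and the length under H3K4me1 peaks in kb (right) upstream and downstream of the 5′ end within 500 kb, for each gene and species. Pig HAND2 has 0 upstream and 12 downstream distal H3K27ac peaks, while its H3K4me1 covers 136.1 kb upstream and 95.3 kb downstream.

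The mouse distal peaks had a median width of 2297 bp around Hand1 and 1562 bp around Hand2, against 2604 bp over all mouse distal H3K27ac peaks. Of the 9 around Hand1, 6 lay upstream and 3 downstream, and 1 had Hand1 as its nearest coding gene, from -46.76 to -43.48 kb without H3K4me1. The others lay nearest to Larp1 (3), an RNA-binding protein gene, and to Fam114a2 (3), Cnot8 (1) and Irgm2 (1). In pig 1 of the 4 lay upstream, in GEMIN5, and 3 lay in GALNT10, from 147.11 to 147.89 kb, from 246.25 to 248.29 kb and from 248.79 to 249.76 kb. None was nearest to HAND1.

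The Hand2 window held 4 other coding TSSs in mouse and 5 in pig, and the Hand1 window 16 and 9. Around Hand2 H3K4me3 peaks numbered 10 in mouse and 13 in pig, which 59.1% and 47.2% of coding genes reached, and around Hand1 18 and 12, which 32.2% and 50.7% reached. H3K27ac peaks numbered 15 and 22 around Hand2, reached by 40% and 28.2%, and 23 and 15 around Hand1, reached by 13.5% and 53.2%. H3K4me1 peaks numbered 53 and 81 around Hand2, reached by 21.3% and 16.9%, and 60 and 64 around Hand1, reached by 10.8% and 35.8%. The H3K4me3 counts of Hand2 in both species and of Hand1 in pig were thus near those of the median gene, 12 in each species. The next coding gene downstream, Scrg1 at 134.9 kb in mouse and SCRG1 at 160.5 kb in pig, carried H3K4me1 alone at its TSS in both species.

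The duplicated neighbours gave a reference within the windows. Sap30 and Sap30l encode related subunits of a histone deacetylase complex, and Galnt7 and Galnt10 encode related glycosyltransferases. All 4 carried H3K4me3 and H3K27ac in mouse and in pig. Pig HAND1 was therefore unmarked beside marked neighbours, with the SAP30L H3K4me3 peak, at 2642 bp, wider than 89.7% of the pig list.

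**Figure D4:**
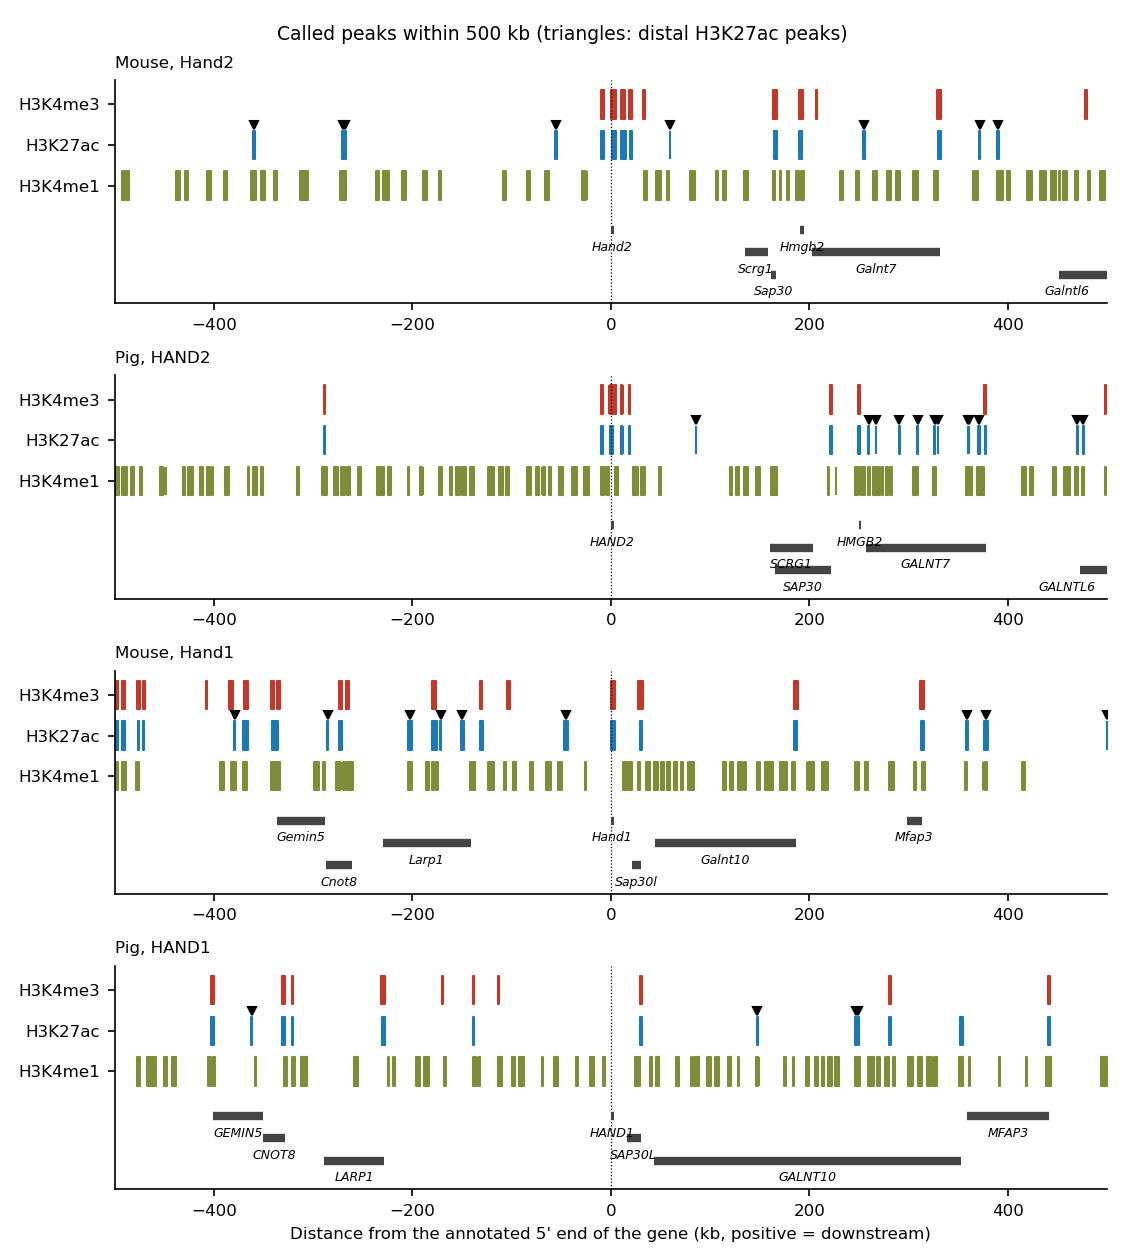
Called peaks of each mark (coloured boxes), distal H3K27ac peaks (triangles) and selected coding genes (dark bars) within 500 kb of each 5′ end, on an axis of distance in kb; the panels from top to bottom are mouse Hand2, pig HAND2, mouse Hand1 and pig HAND1. Mouse Hand2 has 4 triangles on each side, and pig HAND2 has 12 on the downstream side, 9 of them over GALNT7.

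The third comparison asked how often distal H3K27ac peaks also carried H3K4me1. Around Hand2 this held for 4 of 8 in mouse (50.0%, 95% Wilson interval 21.5 to 78.5) and 9 of 12 in pig (75.0%, 46.8 to 91.1). The difference of -25.0 points had p = 0.356 and, after Benjamini-Hochberg correction of the 4 tests, adjusted p = 1.00 (two-sided Fisher's exact test). Around Hand1 the shares were 4 of 9 in mouse (44.4%, 18.9 to 73.3) and 3 of 4 in pig (75.0%, 30.1 to 95.4), a difference of -30.6 points (Fisher's exact test, p = 0.559, adjusted p = 1.00). Hand2 and Hand1 differed by 5.56 points in mouse and 0 points in pig, both with p = 1.00 and adjusted p = 1.00 by Fisher's exact test. Over all distal H3K27ac peaks, 48.1% of 10095 in mouse and 72.2% of 15794 in pig overlapped H3K4me1. Peaks of a window are not independent replicates.

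The fourth comparison asked whether the sequence under mouse distal peaks was found in pig. A search against the pig window found 2 of the 8 Hand2 peaks and 2 of the 9 Hand1 peaks (difference 2.78 points, Fisher's exact test, two-sided, p = 1.00). However, 4 of the 9 Hand1 peaks and none of the 8 Hand2 peaks lay beyond the ends of the aligned stretch, where the pig partner may fall outside the window searched. Over the peaks within it, 2 of 8 and 2 of 5 were found, and the difference turned to -15.0 points (Fisher's exact test, p = 1.00). Both Hand2 matches, the 359 kb and 268 kb segments printed above, lay under pig H3K4me1 and neither under pig H3K27ac. The Hand1 matches, at 85.0% and 70.1% identity, lay under no pig mark. The 4 mouse Hand2 peaks downstream of the gene and the upstream peaks that begin at -270.41 and -55.90 kb gave no match.

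Matches along the windows ran in 1 order. Around Hand2, 210 of 213 matches formed a single collinear chain of 56.3 kb, or 5.63% of the mouse window, at 77.4% identity. Around Hand1, 163 of 164 did so, over 34.7 kb or 3.47%, at 77.9% identity. Upstream of Hand2 the pig sequence was shorter, since mouse -488.9 kb matched pig -359.3 kb. Of the 12 pig distal peaks around HAND2, 3 held chain sequence. One of these, from 469.78 to 470.52 kb, matched mouse H3K4me1, and the other 2 held 54 and 49 aligned bases and matched no mouse mark.

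The chain also shows how much aligned sequence carried a mark in both species. Around Hand2, 73.8% of the aligned bases under mouse H3K4me3 lay under pig H3K4me3, against 1.45% of the aligned bases outside mouse H3K4me3. The shares were 55.7% against 3.43% for H3K27ac and 63.7% against 24.8% for H3K4me1. Around Hand1 they were 52.3% against 0% for H3K4me3, 49.5% against 0.706% for H3K27ac and 39.8% against 8.76% for H3K4me1. These shares include peaks at neighbouring genes. In the Hand1 window the shared H3K4me3 bases lay at Gemin5, Larp1, Sap30l and Galnt10, as the 1068 aligned bases at Hand1 itself were under no pig peak. In the Hand2 window they lay at and near Hand2 and also at Sap30, Hmgb2 and Galnt7. Bases of a peak are not independent, so these shares are descriptions with no test.

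**Figure D5:**
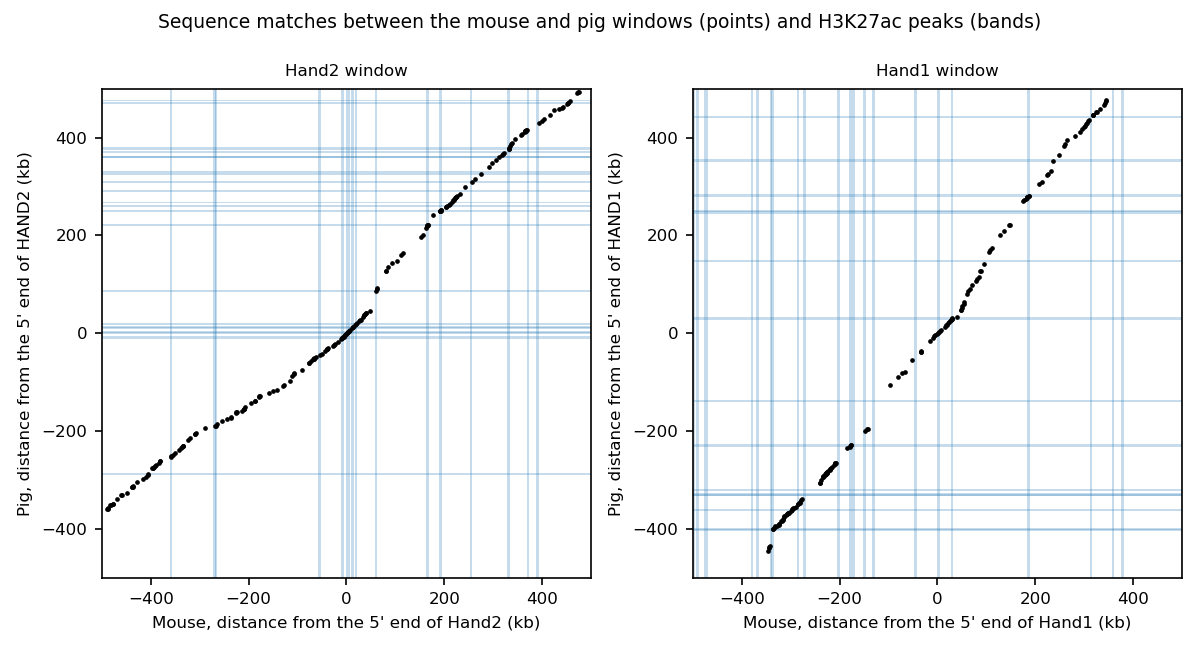
Each point is a sequence match of the collinear chain, at its distance in kb from the 5′ end in mouse (x axis) and pig (y axis), for the Hand2 window (left) and the Hand1 window (right); blue bands are H3K27ac peaks, drawn wider than they are so that they can be seen. The 210 Hand2 matches and 163 Hand1 matches each follow 1 line.

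The next genes described act with Hand2 in patterning the posterior limb or oppose it. Of 26 in that list, 26 carried H3K4me3, 23 H3K27ac and 16 H3K4me1 in mouse, and of the 25 annotated in pig, 21, 16 and 20 did. Over all coding genes the shares were 65.0%, 41.6% and 54.7% in mouse and 64.9%, 46.7% and 61.3% in pig, so the H3K4me1 count in mouse was near that of all genes. Shh, the posterior signal that Hand2 activates, and Tbx2, a T-box repressor, carried H3K4me3 without H3K27ac in both species. Hoxd11 carried H3K4me3 alone in mouse and no mark in pig. Alx4, an anterior homeobox gene, with Asb4 and Runx2, carried all 3 marks in mouse and only H3K4me1 in pig. Irx3, Sall1 and Pax9 carried all 3 in mouse and lacked only H3K27ac in pig. Gli3, Gli1, Ptch1, Tbx3, Grem1 and Hoxd13 were among those with H3K4me3 and H3K27ac in both, as Hand2 had. Unlike HAND2, these named genes also carried H3K4me1 in pig, and Gli1, Tbx3 and Grem1 did so in mouse too. Others of the list were more like Hand2. Hoxd10 carried H3K4me3 and H3K27ac without H3K4me1 in both species, the same state as Hand2, and Ets2 lacked H3K4me1 in pig. Among the genes of the lists below, Tcf3, Twist2, Id1 and Prrx2 also had the Hand2 state in both species.

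The dimer partners of the HAND proteins, the E proteins Tcf3, Tcf4 and Tcf12, the Twist proteins and the inhibitors Id1 to Id3, were marked by H3K4me3 and H3K27ac in 8 of 8 cases in both species. H3K4me1 lay at 5 in mouse and 4 in pig, near its share of all coding genes, 54.7% in mouse and 61.3% in pig. Of 15 related bHLH genes, H3K4me3 lay at 12 in mouse and 11 in pig, H3K27ac at 5 and 2, and H3K4me1 at 11 and 14. Against all coding genes, of which 65.0% and 64.9% carried H3K4me3 and 41.6% and 46.7% H3K27ac, the H3K4me3 counts and the mouse H3K27ac count were near the background. The 5 with H3K27ac in mouse were Twist1, Twist2, Msc, Tal1 and Tal2, of which Twist1 and Twist2 also carried it in pig. Tal1 is a factor of blood and endothelial cells, which a dissected limb also holds.

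Markers of the tissues in which Hand1 and Hand2 also act were checked against the forelimb label. H3K27ac lay at 0 of 8 heart genes in mouse and at 2 of 7 in pig, Myh7 and Myl7. It lay at 0 trophoblast genes, of 6 in mouse and 4 in pig, and at 0 of 6 sympathetic neuron genes in each. H3K4me3 lay at 2, 1 and 3 of these genes in mouse and at 2, 0 and 2 in pig, and H3K4me1 at 4, 4 and 5 in mouse and at 4, 3 and 2 in pig. All coding genes had H3K4me3 at 65.0% and 64.9%, H3K27ac at 41.6% and 46.7% and H3K4me1 at 54.7% and 61.3% in mouse and pig, and most of the H3K4me1 counts of these short lists were near that share. Of the 4 forelimb mesenchyme genes, all carried H3K4me3 and H3K27ac in mouse, whereas in pig Tbx5 and Prrx2 did and Prrx1 and Fgf10 carried only H3K4me1. H3K4me1 lay at 3 of them in mouse and 2 in pig. The hindlimb selectors Pitx1 and Tbx4 carried H3K4me3 without H3K27ac in both species, with H3K4me1 in pig alone. The part of cell mixture or stage in the marking of pig HAND1 was not tested.

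Over 14946 orthologs, each gene's length under each mark within 500 kb was turned into a percentile in each of the 6 lists, and genes were ordered by their mean absolute percentile difference from the member. Nearest to Hand2 were Zic5 (3.72 points) and Zic2 (3.87), neighbouring zinc finger genes, and Abca4 (4.92), a transporter gene. Nearest to Hand1 were Pxmp4 (2.32), Dusp5 (3.56), a phosphatase gene, and Necab3 (3.61). The paralogs were 15.94 points apart. Hand2 stood at percentile 34.5 for mouse H3K4me3 and 37.5 for mouse H3K27ac, where Hand1 stood at 64.2 and 72.7, and for mouse H3K4me1 they stood at 78.9 and 81.6. In pig they stood at 44.3 and 49.2 for H3K4me3, 59.3 and 51.7 for H3K27ac, and 70.1 and 54.5 for H3K4me1.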

How the data were processed

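The authors deposited 1 list of peak positions per species and mark, merged over replicates. Per the series' design text, reads of 50 bp (100 bp cropped, except in pig H3K27ac and H3K4me3) were aligned to GRCm38 or Sscrofa11.1 and broad peaks were called at an irreproducible discovery rate below 0.01. The submitters' processing notes name Bowtie2 2.3.5, Trimmomatic 0.39, SAMtools 1.9, deepTools 3.5 and FastQC 0.11.9. Which program called the peaks is not given in these sources, and depth is unknown.

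Peaks were placed on the RefSeq annotation of the same builds with Python 3.11.15 and pandas 2.3.3. Peaks overlapping by 1 bp or more counted as shared, and covered lengths were clipped to the window. Windows, with repeats masked, were aligned with blastn 2.17.0 at an E value of 1e-10. Fisher's tests came from scipy 1.17.1. The code was tested on simulated peaks and sequences.

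The members and lists were chosen with earlier results of these data known. Named genes were the members, coding neighbours within 500 kb, noncoding genes starting within 5 kb, the 3 most alike orthologs, and list members marked differently between species or from most of their list. Other named genes were chosen after their values were seen. Alternatives were another TSS window, a 250 kb window, the wider 50% of peaks, joined peaks, peaks with H3K4me3 kept, a 50% overlap, another E value and unmasked repeats.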

Additional observations from a re-analysis of the deposited data

How the results depend on the processing

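No paired analysis was possible because each deposited list merges its replicates, and for the same reason no replicate could be left out. At the TSS base itself, mouse Hand2 and mouse Hand1 had 0 marks each instead of 2, since their peaks begin downstream of it, and pig HAND2 kept 2. Within 2.5 kb pig HAND2 had 3 marks, as H3K4me1 then counted. Pig HAND1 had 0 in the 4 alternative settings. Distal H3K27ac peaks within 250 kb numbered 2 at mouse Hand2, 1 at pig HAND2 and 4 at mouse Hand1, and pig HAND1 had 3. Among the wider 50% of each list they numbered 1, 3, 3 and 1 at mouse Hand2, pig HAND2, mouse Hand1 and pig HAND1, against 8, 12, 9 and 4 with all peaks, so the larger number in pig held at Hand2 under this setting but not within 250 kb. With peaks that carry H3K4me3 away from a TSS kept, they numbered 10, 18, 10 and 5. Of the 16 alternatives to the Fisher's exact tests, 8 left group sizes that cannot reach 0.05, so they say nothing about stability, and the differences moved widely. For H3K4me1 on distal peaks, Hand2 minus Hand1 in mouse went from 5.56 points to -25.0 within 250 kb and -33.3 among wider peaks, and in pig from 0 to -100 and -33.3. Mouse minus pig went from -25.0 to 0 and -66.7 at Hand2, and from -30.6 to -75.0 and -66.7 at Hand1. For sequence matches, Hand2 minus Hand1 went from 2.78 points to 15.3 at an E value of 1e-5, -8.33 with repeats not masked, -25.0 within 250 kb and -15.0 for peaks within the aligned stretch, a setting chosen after seeing the data. No direction is therefore drawn from these tests. Precision is limited by the small numbers of peaks and by calls without scores.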

Other observations

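Within 1 kb of the 5′ end, the CpG observed-to-expected ratio was 0.816 at mouse Hand2 and 0.817 at pig HAND2. It was 0.470 at mouse Hand1 and 0.693 at pig HAND1. The GC content of the same bases was 58.4%, 67.9%, 58.3% and 64.0% in that order. By the alignment, the Hand2 windows of the 2 species are set 848 bp apart, so they hold partly different sequence. Pig HAND1, the gene without a called mark, had a higher CpG ratio than its marked mouse ortholog. The part of CpG content in the marking was not tested.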
